A study of Mus musculus with 2 samples.

Results

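The 10 immediate early genes described here are Fos, Fosb, Fosl2, Jun, Junb, Jund, Egr1, Atf3, Ier2 and Dusp1. Their chromatin was read from ATAC-seq intervals of the mouse build mm10, each interval being given to the protein-coding gene whose transcription start site (TSS) lay nearest. The start of the GENCODE gene record was taken as the TSS. By this rule 102 of 119502 intervals belonged to the 10 genes, of which 9 overlapped a start (TSS intervals) and 93 did not (distal intervals). When the start of every protein-coding transcript was used instead, 106 intervals belonged to them.

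The data came from 1 group of 2 replicate libraries, with no second condition to compare. Mouse embryonic stem cells of the Olig2-mKate2 line, in which the red fluorescent protein mKate2 follows expression of the motor neuron progenitor (pMN) gene Olig2, were differentiated to neural progenitors (NPs) and sorted live at day 5. Both replicates had 100 nM SAG, an agonist of Sonic hedgehog signalling, and 100 nM retinoic acid (RA), and 50000 cells entered each transposition. The libraries held 31876165 and 31672240 counts. Earlier in the protocol the cultures also received bFGF, CHIR99021, LGK, SB-431542 and DMH1. Because the gate followed the reporter, it could also hold newly made motor neurons and cells positive for both OLIG2 and NKX2.2. The labels do not say whether the replicates were separate cultures, and differences between them may be technical.

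Immediate early genes are switched on within minutes of a signal, before new protein has to be made. The FOS and JUN proteins pair through leucine zippers to form AP-1, which binds TGACTCA. Any TGANTCA, with N any base, was counted here as an AP-1 site. EGR1 is a zinc finger factor that binds GC-rich sites. Upstream, MAP kinases act through serum response factor at serum response elements (SREs) and through CREB at cyclic AMP response elements (CREs), and DUSP1 dephosphorylates MAP kinases. Chromatin that is open at such a gene need not mean that the gene is transcribed.

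The letters that signal-responsive factors are known to recognise were found within the open intervals at several of these starts. The 3 SREs that lay upstream of a start within a TSS interval and off the Egr1 locus are shown here with 20 bases on each side, read from GRCm38, the assembly of mm10, on the strand of the gene and with the element in capitals. They began 309 bases before the Fos start (chr12:85473561-85473610, plus strand), 266 before the Fosb start (chr7:19310288-19310337, minus strand) and 1450 before the Junb start (chr8:84980139-84980188, minus strand).
Fos SRE: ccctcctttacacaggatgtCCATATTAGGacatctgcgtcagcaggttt
Fosb SRE: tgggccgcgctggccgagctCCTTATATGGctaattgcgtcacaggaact
Junb SRE: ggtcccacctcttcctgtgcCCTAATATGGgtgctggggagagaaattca

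A CRE, spelled TGACGTCA, began 214 bases before the Jund start (chr8:70698715-70698762, plus strand), 45 before the Ier2 start (chr8:84662870-84662917, minus strand) and 96 before an internal Dusp1 start (chr17:26508588-26508635, minus strand). These 3 are shown the same way, because they were the only exact CREs in the start intervals of the 10 genes.
Jund CRE: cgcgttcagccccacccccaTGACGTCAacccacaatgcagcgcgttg
Ier2 CRE: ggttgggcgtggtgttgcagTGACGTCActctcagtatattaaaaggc
Dusp1 CRE: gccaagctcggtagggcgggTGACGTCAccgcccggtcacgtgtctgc

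The first question was how open the starts of these genes were. At the start of the gene record, 9 of 10 genes had an interval, beside 61.5% of 21866 protein-coding genes. Promoter density is the count in the TSS interval after division by DESeq2 size factors, per kb of interval. Its median over the 10 genes was 969 ± 51.6 normalised counts per kb (SD, n = 2), with 1006 in replicate 1 and 933 in replicate 2. All protein-coding genes had a median of 401 ± 7.58, and those with a TSS interval 882 ± 19.3. The genes thus lay above the gene-wide median in both replicates, by more than the spread between them, but only 5 of 10 exceeded the median of genes with an open start. Here and in later comparisons of medians, that spread is between libraries and does not measure variation among genes. The median of their percentiles among all genes was 72.5. Over the 9 genes with a TSS interval, thus without Atf3, the median density was 1115 ± 79.8 and the median percentile among genes with a TSS interval 64.9. In bulk libraries, more cells with an open site and more frequent opening in each cell cannot be told apart.

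Where each protein-coding transcript start was counted, 10 of 10 genes had an interval, beside 66.9% of genes. The median then rose to 1212 ± 62.9 (SD, n = 2), against 853 ± 20.3 for genes with an interval, and 7 of 10 genes exceeded it. Among the 10 genes only Atf3 and Dusp1 changed in value, as their gene records begin far upstream of an internal start that was open.

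**Figure D1:**
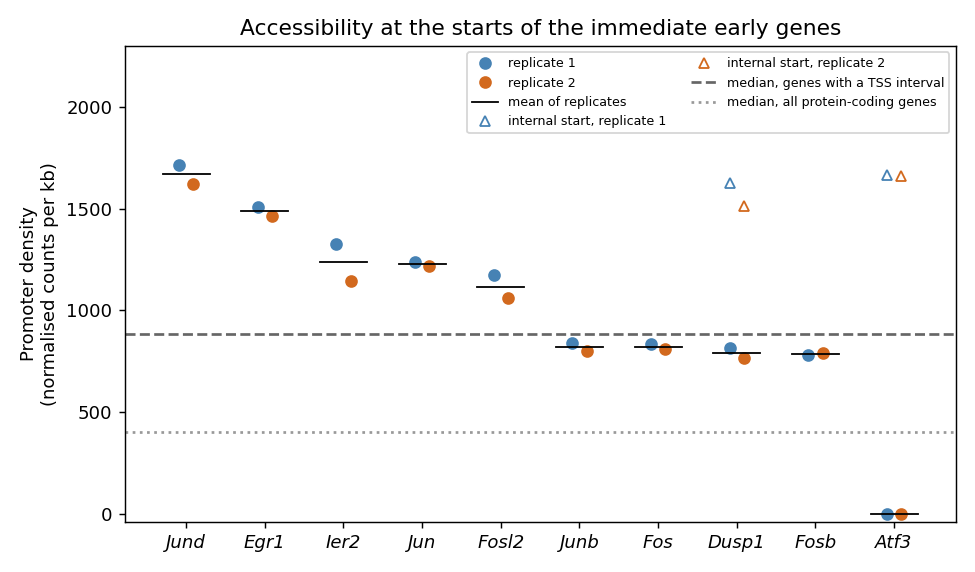
Promoter density (vertical axis, normalised counts per kb) of the 10 genes, ordered by their mean, with filled points for each replicate at the start of the gene record, horizontal bars for the mean and open triangles for the internal starts of Atf3 and Dusp1. Jund to Fosl2 lie above the dashed line at 882, the median of genes with a TSS interval, and Junb to Fosb lie between it and the dotted line at 401, the median of all protein-coding genes. Atf3 has no interval at its record start, although its internal start reaches 1663.

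Among the FOS family, which supplies the partners of JUN proteins in AP-1, Fosl2 had the highest promoter density. Its interval (chr5:32134999-32136669) held 1957 counts in replicate 1 and 1770 in replicate 2, a density of 1115 ± 79.8 (SD, n = 2). The Fos interval (chr12:85472066-85474892) held 2357 and 2282 counts, a density of 820 ± 19.2. Fosb, whose short isoform is known for its stability in stimulated neurons, had 2063 and 2085 counts (chr7:19307978-19310620) and a density of 785 ± 5.43. The replicate ranges of Fos and Fosb did not overlap each other, nor those of Fosl2. Both Fos and Fosb lay below the median of genes with a TSS interval.

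The JUN family, which can form AP-1 by itself or with FOS proteins, spanned most of the range. Jund, the member that many cells make without stimulation, ranked first of the 10 genes, with 4637 and 4387 counts (chr8:70698326-70701028) and a density of 1669 ± 66.4 (SD, n = 2). Jun had 4456 and 4375 counts (chr4:95050014-95053611) and a density of 1227 ± 16.6. Junb had nearly as many, 4056 and 3871, but over the longest TSS interval of the set, 4830 bp (chr8:84975589-84980418), so its density was 821 ± 27.6. The 3 JUN genes did not overlap in density in the replicates. The Jun interval also overlapped the start of Junos and the Jund interval that of Gm11175, both non-coding records, so counts there cannot be divided between the genes.

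Junb, Jund and Ier2 lie on chromosome 8, where genes with a TSS interval had a median density of 1268, beside 881 on the other autosomes. Ranked among genes of their own chromosome, Jund fell from percentile 92.3 to 77.9, Ier2 from 82.4 to 64.1 and Junb from 66.6 to 48.1. The 7 genes on other chromosomes had a median density of 820, beside 881 for genes with a TSS interval there. The sets are unlike, since the 7 include Atf3 at 0, which has no TSS interval. Of those with one, Egr1 (1487), Jun (1227) and Fosl2 (1115) were above 881. Fos (820), Dusp1 (789) and Fosb (785) were below it. These values were taken at record starts, and the Dusp1 interval there also overlapped the Ergic1 start. With every coding transcript start counted, Atf3 was at 1663 and Dusp1 at 1232. Both exceeded 853, the median of all genes with an interval by that definition. The median of all 10 genes, Atf3 again at 0, was above that of genes with a TSS interval. The part of the chromosome in their order was not tested.

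Outside AP-1, Egr1 was second of the 10 genes. Its interval on chromosome 18 (chr18:34859797-34862369) held 3881 and 3770 counts, a density of 1487 ± 31.4 (SD, n = 2), and contained both annotated coding starts. The start of the gene record was only 26 bases inside the interval, and the other start was 1410 bases inside. Ier2, which encodes a small nuclear protein induced by growth factors, had 2483 and 2146 counts (chr8:84661288-84663159) and a density of 1236 ± 128, the largest SD among the 10 genes. Its replicate range overlapped those of Jun and Fosl2.

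Atf3, a stress-induced factor of the ATF/CREB family, had no interval at the start of its gene record on chromosome 1, position 191218039. An interval at its other coding start, position 191183340 (chr1:191182378-191184010), held 2718 and 2714 counts, a density of 1663 ± 2.69 (SD, n = 2). By record starts this interval was given to its neighbour Fam71a. Dusp1 showed the same arrangement. Its record start on chromosome 17, position 26562128, lay in an interval (chr17:26560957-26562244) that also overlapped the start of Ergic1, with 1047 and 986 counts and a density of 789 ± 33.9. The interval over its internal starts at 26508519 and 26508472 (chr17:26507625-26509320) held 2755 and 2566 counts, a density of 1569 ± 79.7, and was given to Ergic1 by record starts. For both genes the internal start was the denser in each replicate. These internal intervals were singled out after their values were seen.

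In the order of density at record starts, Ier2 and Jun had overlapping replicate ranges, as did Junb and Fos, Fos and Dusp1, and Dusp1 and Fosb. The other neighbours were separate, although 2 libraries give a range of little precision. The order by counts was different, since the intervals differed in length. The TSS intervals of these genes had a median length of 2643 bp, between 1288 and 4830, beside 1229 bp over all TSS intervals. GC content was similar, with a median of 61.1% beside 60.2%.

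Several immediate early genes are short, and the open interval ran over much of the transcribed region. Ier2 and Jund, with records of 1522 and 1668 bp, lay within intervals over 100% of their length. The share was 73.9% for Junb, 69.3% for Jun, 49.3% for Egr1, 33.5% for Fosb and 29.6% for Fos. It was 11.4% for Fosl2, 8.09% for Dusp1 and 6.04% for Atf3, the 3 longest records. The Dusp1 record begins 52.8 kb, and the Atf3 record 34.0 kb, upstream of the interval at the open internal start. Their lengths and shares therefore depend on the use of the record start. The median over the 10 genes was 41.4%, beside 4.46% over all protein-coding genes. Among records under 5 kb, the 5 members had a median of 73.9%, beside 29.0% for the 1624 such genes with a TSS interval. More than 50% was covered in 4 of the 5 members, in 25.4% of those 1624 genes and in 11.5% of all 4148 genes of that size, of which 2524 had no TSS interval.

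**Figure D2:**
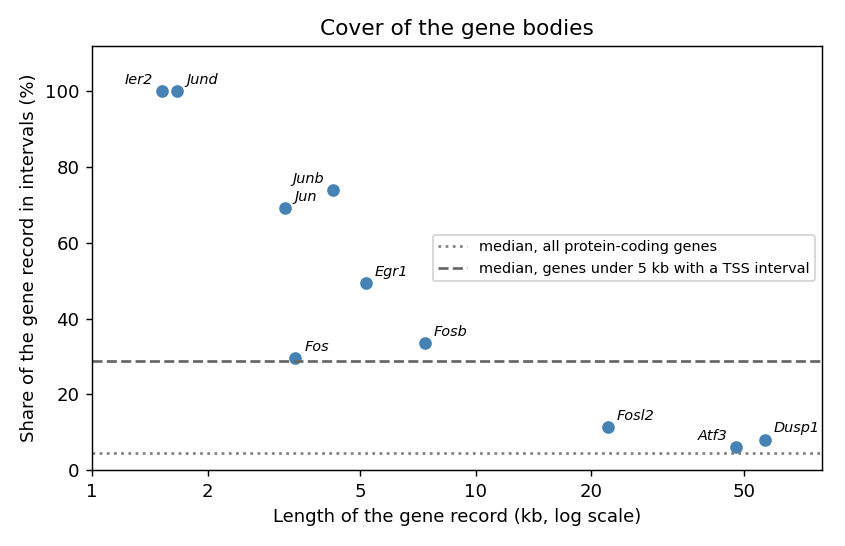
Share of each gene record inside intervals (vertical axis, %) against the length of the record (horizontal axis, kb, log scale), 1 point per gene. The short records of Ier2 and Jund are at 100%, and the long records of Fosl2, Atf3 and Dusp1 are under 12%. The lines give the medians of 4.46% for all protein-coding genes and 29.0% for genes under 5 kb with a TSS interval.

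Next, the distal intervals around the genes were examined. Jun had 24 intervals in all, Ier2 23, Fos 18, Fosl2 12, Egr1 and Atf3 6 each, Dusp1 and Fosb 5 each, Jund 2 and Junb 1. The median of 6 compares with 3 over all protein-coding genes, and 8 of 10 genes exceeded that. Many of the downstream intervals of Ier2 overlapped Cacna1a, while those of Jun reached far upstream. An interval near a gene need not act on it. When non-coding genes could also claim an interval, only 32 remained with the 10 genes. The non-coding record Junos, for example, begins at Jun and extends over much of its upstream side.

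**Figure D3:**
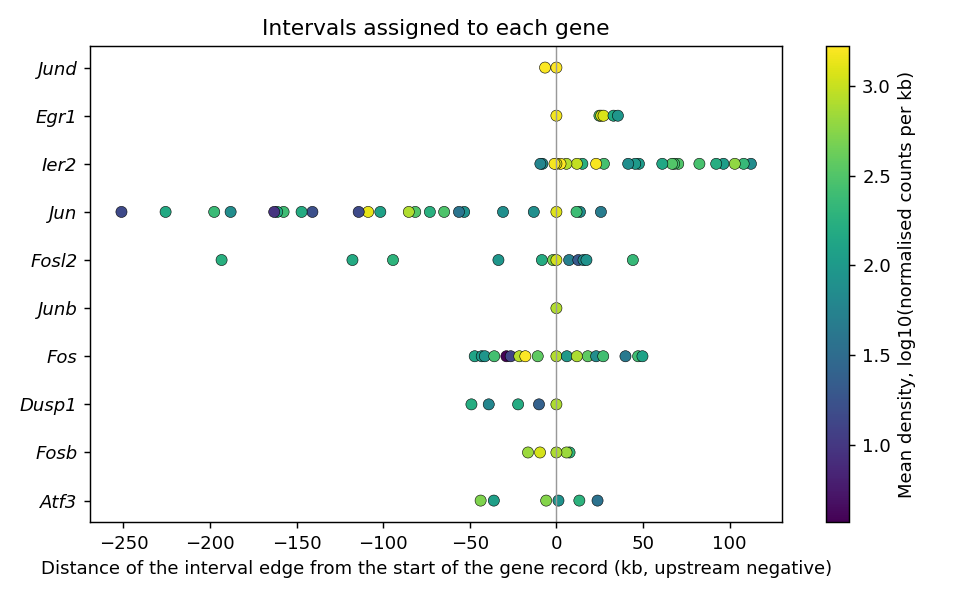
Intervals of each gene by distance from the start of the gene record (horizontal axis, kb, upstream negative), coloured by mean density on a log10 scale. Jun has intervals as far as 251 kb upstream, those of Ier2 lie mostly downstream, and Junb has its TSS interval alone.

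Of the 93 distal intervals, 48 lay upstream and 45 downstream, at a median distance of 35.5 kb. By annotation 37 were intergenic, 18 were in introns of coding genes, 15 in introns and 10 in exons of non-coding records, 10 in coding exons and 3 in UTRs. Their median density was 164 ± 5.54 normalised counts per kb (SD, n = 2), beside 126 ± 2.05 over all 107293 distal intervals. The difference was larger than the spread between replicates, which does not measure variation among loci. A mean normalised count over 100 was reached by 48 of 93 (51.6%, 95% Wilson interval 41.6 to 61.5, counting error only), beside 32.4% of all distal intervals. Longer intervals pass such a count limit more easily, and the median length was 600 bp, beside 472 bp over all distal intervals. Intervals of 1 locus are not independent, and Ier2 alone supplied 15 of the 48. Without Ier2 the share was 46.5% of 71 intervals and the median density 155.

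At the upper end, 11 of 93 distal intervals (11.8%, Wilson interval 6.73 to 19.9) had a mean density above 853, the median over TSS intervals, beside 3.37% of all distal intervals. The least dense of the 11, at Fos, was at 854, and 10 exceeded 855, the mean of the replicate medians. Ier2 had 4 of the 11, Fos and Egr1 2 each, and Jun, Jund and Fosb 1 each. Ier2 and Jund lie on chromosome 8, where starts were denser than on the other autosomes. The part of the chromosome in this share was not tested. At the lower end, the least dense interval had 1 count in each replicate and a density of 3.69, at Fos. The set thus held larger shares at both ends than the distal intervals as a whole, with 9.68% above a density of 1000 (2.38% of all). Below 10 were 2 intervals (2.15%, beside 0.447% of all), and from 10 to 20 were 5 (5.38%, beside 1.29%). These 7 lay at Jun, Fos and Fosl2 only, those of Jun between 114 and 251 kb upstream.

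**Figure D4:**
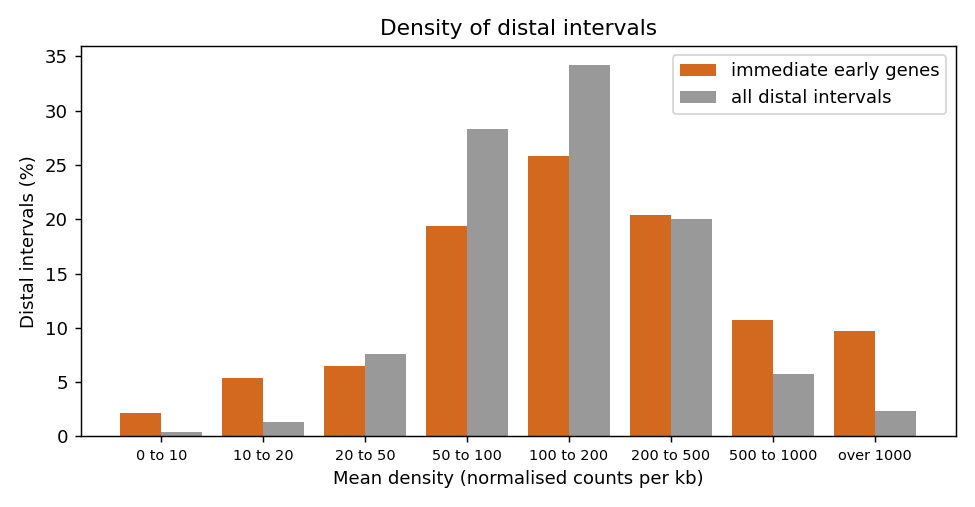
Share of distal intervals (vertical axis, %) in bins of mean density (horizontal axis, normalised counts per kb) for the 93 intervals of the immediate early genes and for all 107293. The genes hold larger shares of both ends, 2.15% (2 intervals) against 0.447% below 10 and 9.68% (9 intervals) against 2.38% above 1000.

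Ranked by counts, the strongest distal interval of Ier2 lay 1.10 kb upstream of its start, over the start of the non-coding record Gm26664 (chr8:84663956-84665721). It held 2794 counts in replicate 1 and 2574 in replicate 2, more than the TSS interval in both. Such an interval is distal with respect to protein-coding starts only. By density the highest of all 93 was another Ier2 interval, 2.37 kb downstream (chr8:84659988-84660485), with 836 and 810 counts and a density of 1653, beside 1520. Ier2 also had an interval in a coding exon of Cacna1a, 22.9 kb downstream (chr8:84638591-84639929), with 2083 and 2118 counts. Only 19.1% of the normalised counts of the Ier2 locus were in its TSS interval, the lowest share among the 9 genes that had one.

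Fos was similar, with 30.1% of its counts at the start. Its strongest distal interval, 11.8 kb downstream (chr12:85485729-85488015), held 1848 and 1768 counts, and another 17.9 kb upstream (chr12:85454978-85455943) held 1547 and 1603. The second of these had a density of 1630, about that of the densest promoters of the set and above that of the Fos start itself. Both lay between genes.

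For Jun the strongest was 109 kb upstream, in an exon of the non-coding record Junos (chr4:95160930-95161888), with 1293 and 1269 counts. For Jund it was the only distal interval, 6.55 kb upstream (chr8:70691397-70692399), with 1632 and 1621 counts and a density of 1622 ± 8.69 (SD, n = 2) whose replicate range overlapped that of its promoter. Fosb had its strongest 9.46 kb upstream in an exon of D830036C21Rik (chr7:19319506-19320291), with 882 and 881 counts. These replicates differed little at each site.

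The remaining genes had weaker distal intervals, apart from Egr1. Its strongest was intergenic, 27.2 kb downstream (chr18:34887010-34888023), with 1233 and 1159 counts. The strongest of Atf3 held 712 and 647 counts 5.91 kb upstream, over the start of the non-coding record D730003I15Rik. That of Fosl2 held 406 and 431 counts 1.96 kb upstream, over the start of the non-coding record Gm10463. Dusp1 had at most 119 and 140 counts, in a UTR of Ergic1, 39.1 kb upstream of its record start. With transcript starts this interval was not given to Dusp1, and an interval 4.84 kb from its internal start (chr17:26502836-26503629) was, with 343 and 340 counts. Junb had no distal interval, so 100% of its counts were at the start.

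The replicate libraries were then compared interval by interval. After Benjamini-Hochberg adjustment the exact binomial test called 0 of the 102 intervals (0.0% of all intervals were called), and 9 (8.82%) had an unadjusted p under 0.05, beside 8.39% of all. The lowest exact binomial p was that of the Ier2 TSS interval, 6.69e-07, with an adjusted p of 0.0155 and a log2 ratio of replicate 2 to replicate 1 of -0.21. With edgeR TMM factors its adjusted p was 0.00838, the only 1 of the 102 under the limit of 0.01, beside 6 of all 119502 intervals (0.00502%), and with total counts 0 were called. This test sets 1 library against the other and covers counting error only, with fragments taken as independent. Where the mean exceeded 100 normalised counts, the log2 ratio had an SD of 0.16 over the 57 intervals of these genes and 0.14 over all. The TSS intervals were lower in replicate 2 at 8 of 9 genes, Fosb being the exception, as were 72.1% of all TSS intervals with a mean over 1000. At these starts the libraries therefore differed in the direction in which most strong starts did.

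The motif letters were next counted on both strands, in the whole of each interval. SREs were in 5 of 9 TSS intervals (55.6%, beside 4.56% of all 12209 TSS intervals), at Fos, Fosb, Junb, Egr1 and Dusp1. The Egr1 interval held 5 of them, between 407 and 83 bases before its second start. CREs were in 2 of 9, Jund and Ier2 (22.2%, beside 5.14%). The EGR site, GCGGGGGCG or GCGTGGGCG, was in 6 of 9 (66.7%, beside 18.2%), including that of Egr1. AP-1 sites were in 3 of 9 (33.3%, beside 18.0%), at Fos, Fosl2 and Ier2. The stricter TGACTCA, on either strand, was in 2 of 9 (22.2%, beside 12.5%), since the Fos site is TGAATCA. The GC box, GGGCGG, which shares letters with EGR sites where they adjoin, was in 9 of 9 (beside 88.0%), and TATAAA was in 4 of 9 (beside 20.3%). The SRE and EGR site of Dusp1 lay in the interval shared with the Ergic1 start, and the interval at its internal starts held neither. A longer interval has more room for a match, and the TSS intervals of these genes were longer than most. In the central 200 bp, SREs were in 1 of 9 (11.1%, beside 0.5%) and EGR sites in 1 of 9 (11.1%, beside 4.45%).

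In a fixed window from 250 bases before to 50 after the record start, which does not depend on interval length, no gene of the 10 had an SRE (beside 1.47% of 21853 windows) and none had an AP-1 site (beside 6.90%). In this window Jund and Ier2 had a CRE (2 of 10, beside 2.43%), Fosb and Jund an EGR site (2 of 10, beside 4.29%), and Fos and Junb a TATA box (2 of 10, beside 12.7%), 33 and 30 bases before their starts. The SREs of Fos and Fosb lay just outside it, and 2 of the Egr1 SREs lay 105 and 83 bases before its second start, which this window does not cover. The window also misses the internal starts of Atf3 and Dusp1, and so the CRE 96 bases before an internal Dusp1 start. A match is a description of the letters and says nothing of binding.

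**Figure D5:**
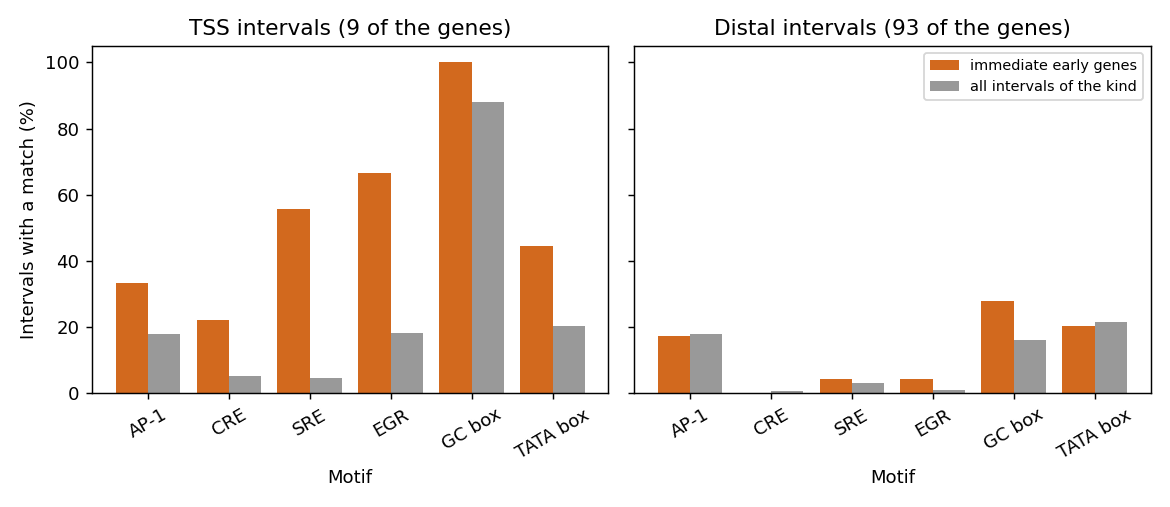
Share of intervals with at least 1 match (vertical axis, %) for each motif (SRE, serum response element), in TSS intervals on the left and distal intervals on the right. With whole intervals searched, the genes stand above all TSS intervals for SREs (55.6% against 4.56%) and EGR sites (66.7% against 18.2%). In distal intervals their share with an AP-1 site (17.2%) is near that of all (18.0%).

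In the distal intervals, AP-1 sites were in 16 of 93 (17.2%), beside 18.0% of all distal intervals, a share near that background. The Fos and Jun genes supplied 6 of their 56 intervals (10.7%, Wilson interval 5.00 to 21.5), and the other 4 genes 10 of 37 (27.0%, 15.4 to 43.0), a split made after the values were seen. The stricter TGACTCA, on either strand, was in 12 of 93 (12.9%, beside 11.9% of all distal intervals). No CRE was found (beside 0.717%), SREs were in 4 (4.30%, beside 2.92%) and EGR sites in 4 (4.30%, beside 1.01%). The SREs included both the downstream Fos interval described above and one 10.8 kb upstream of Fos. Examples of AP-1 sites in stronger distal intervals, in capitals with 40 flanking bases on the plus strand, are shown for Fos (chr12:85437865-85437951, 35.9 kb upstream), Fosb (chr7:19327308-19327394, in the interval 16.4 kb upstream) and Atf3 (chr1:191224403-191224489, in the interval 5.91 kb upstream).
Fos distal AP-1: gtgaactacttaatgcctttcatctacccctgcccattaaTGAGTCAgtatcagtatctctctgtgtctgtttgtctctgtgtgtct
Fosb distal AP-1: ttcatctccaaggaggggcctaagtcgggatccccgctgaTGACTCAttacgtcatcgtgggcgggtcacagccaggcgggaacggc
Atf3 distal AP-1: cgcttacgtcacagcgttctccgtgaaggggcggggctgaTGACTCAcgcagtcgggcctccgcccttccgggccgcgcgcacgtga

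Other immediate early and AP-1 pathway genes gave a similar picture. Of 35 such genes, 32 had a TSS interval, and their median promoter density was 949 ± 14.5 normalised counts per kb (SD, n = 2), beside 969 ± 51.6 for the 10 genes, a difference within the spread between replicates. The median of all genes with a TSS interval was exceeded by 19 of 35. The highest were the clock gene Per1 (2480), the TGF-beta-responsive factor Klf10 (1954) and Ccn2, listed as Ctgf (1588). The lowest were Npas4, a factor induced by neuronal activity, Zfp36, which destabilises messenger RNAs, and Maff, none of which had an interval over the record start. These zeros depended on the definition, since 35 of 35 genes had an interval within 1 kb of the record start and 34 had one over some coding transcript start. Of 10 upstream kinases and factors, among them Srf and Creb1, 9 had a TSS interval, and the median density was 1257 ± 59.0.

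The markers of the sorted cells were examined as a check on the labels. All 7 genes of neural and pMN progenitors had a TSS interval, with a median density of 946 ± 23.2 (SD, n = 2), Olig2 itself also being at 946. The range within the list was wide, from Pax6 at 187 to Sox1 at 1498. Of motor neuron genes 4 of 6 had one, with a median density of 349, Isl1 at 1087 and Isl2 and Chat at 0. The neuronal genes Tubb3 (714), Stmn2 (231) and Dcx (76.4) each had one. Of the p3 and floor plate, Nkx2-2 was at 484, and Foxa2 and Shh were at 0. Among pluripotency genes, Zfp42 alone had one (237), with Pou5f1, Nanog and Dppa4 at 0. Of feeder fibroblast genes 3 of 6 had one, none above 248, and Col1a1, Col3a1 and Lum were at 0. These zeros mean only that no interval overlapped the start of the gene record. Intervals still covered 55.4% of the Foxa2 record, 46.9% of Shh and 31.0% of Isl2. They covered at most 18.3% of the other markers at 0, and 0% of Nanog, Dppa4 and Lum. The part of other cells in the intervals of the immediate early genes was not tested.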

How the data were processed

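ATAC-seq of 2 libraries of live sorted NPs was analysed. The authors deposited raw counts of read pairs over consensus intervals. Per the study's methods, reads were aligned to mm10 and MACS peaks present in replicates were merged, and per the file headers featureCounts 2.0.1 counted fragments with a minimum overlap of 0.2 in every interval they touched, so a fragment can count more than once. The other 3 columns belonged to no sample here and were not used, although they helped to define the intervals. Weak sites outside called peaks are therefore missing, and a density of 0 means no interval.

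Size factors came from DESeq2 1.42.0, with edgeR 4.0.16 TMM factors and total counts as alternatives, in R 4.3.3. Other steps ran in Python 3.11.15 with scipy 1.17.1, pandas 2.3.3 and numpy 2.4.6. Genes were those of GENCODE M21. An interval belonged to the gene with the nearest start of a protein-coding gene record, measured from its edge. Each interval was tested between libraries with a two-sided exact binomial test, Benjamini-Hochberg adjustment over all intervals and a limit of 0.01. Log2 ratios used a pseudocount of 1. The test was also run on simulated Poisson counts, which hold counting error only and so cannot show its behaviour on these libraries. Motifs were searched in GRCm38, in which 658 of 658 RefSeq promoter windows checked were identical. The genes, lists and motifs were chosen with earlier results of these data known. Named were all 10 genes, the distal interval of each with the highest mean count, the interval with the lowest p, and the highest and lowest 3 of the other immediate early genes. Further intervals named were chosen after their values were seen. Some items of the lists are not reported here. Depth of about 31876165 counts leaves intervals of few counts imprecise, and no molecular identifiers were used.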

Additional observations from a re-analysis of the deposited data

How the results depend on the processing

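With every protein-coding transcript start the median promoter density was 1212 and the median percentile 81.7. As counts per TSS interval they were 2317 and 92.4, among genes with a TSS interval, with Atf3 counted at 0, the percentile was 55.3, and among genes of the same chromosome, an alternative added after seeing the data, 68.7. Leaving out each replicate gave medians of 933 to 1006 and percentiles of 71.8 to 73.3. The number of intervals was 32 with the nearest start of any annotated gene. The share of strong distal intervals was 28.0% at a limit of 200 normalised counts. The median distal density was 105 as counts per interval and 153 within 50 kb. The share with an AP-1 site was 5.38% in the central 200 bp. With TMM factors 1 interval was called, beside 6 over the whole table. The cause of these shifts was not tested, beyond what each definition sets. Results under the other alternatives stayed within the replicate spread, the Wilson interval or 1.5 times the main count. No paired analysis was possible because the libraries formed a single group. The limits are the 2 libraries, the single condition and the lack of RNA measurements used here.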

Other observations

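The motif bound by the products of these genes was also examined away from their own loci. Among all 107293 distal intervals, 7757 (7.23%) had an AP-1 site in the central 200 bp. Their median density was 125 ± 3.07 normalised counts per kb (SD, n = 2), beside 126 ± 1.99 without it, a ratio of 0.988 ± 0.00869. With the whole interval searched, an alternative added after seeing the data, the ratio was 1.06 ± 0.00587, but intervals with a site were longer (a median of 682 bp against 434).

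Intervals with an EGR site in the central 200 bp were few, 323 (0.301%), and dense, with a median of 433 ± 8.75 (SD, n = 2) and a ratio of 3.44 ± 0.125. They also had a higher median GC content (60.6% against 48.5%) and a greater median length (922 bp against 471). Where intervals over any protein-coding transcript start were left out, 222 remained and the ratio was 2.28 ± 0.0596. The part of GC content and length in this difference was not tested.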
